A study of Mus musculus with 4 samples.

Results

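The genes described are 10 genes grouped as feedback inhibitors of ERK signalling, *Dusp1*, *Dusp2*, *Dusp4*, *Dusp5*, *Dusp6*, *Dusp10*, *Spry1*, *Spry2*, *Spred1* and *Spred2*. They were taken by symbol from the 24369 genes listed for each library, and all 10 had enough counts to be tested. *Dusp10* is kept in the group although its product prefers p38 and JNK over ERK. The libraries came from splenic naïve CD4 T cells of WT C57BL/6 mice, which received anti-CD3 coated on plates together with anti-CD28 and human IL-2, without polarizing cytokines, and were transduced on day 2. In the EV RV group the retrovirus carried eGFP alone, and in the Tox RV group it carried *Tox* and eGFP. On day 5 all cells were restimulated for 5 h (through CD3 in the methods, through CD3 and CD28 in the design text) and sorted as CD4+ GFP+ cells, with 2 biological replicates in each group. Both vectors were of the MSCV type, so the added *Tox* was driven by the retroviral promoter and not by its own locus. The age of the mice was not given in the sources used here, and the sample labels list recombinant human anti-CD28 in the place where the methods give IL-2. The question put to these data was whether forced *Tox* expression was accompanied by a different set of ERK feedback transcripts.

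Engagement of the T cell receptor activates the Ras, Raf, MEK and ERK cascade, and active ERK induces genes whose products switch the cascade off again. Dual specificity phosphatases (DUSP) remove the activating phosphates from ERK or from the related kinases p38 and JNK. Sprouty (Spry) and Spred proteins act further upstream and limit the activation of Ras and Raf. Many of these genes are rapidly induced in activated T cells, and their transcripts are therefore often read as a trace of recent ERK signalling.

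For 9 of the 10 genes (all but *Dusp4*) the RefSeq promoter table of GRCm38.p6, the assembly also called mm10, held a window, and the 250 bases before the transcription start were searched on both strands. The motifs were the cAMP response element TGACGTCA, the AP-1 site TGANTCA, the ETS site CCGGAAG, the EGR site GCGTGGGCG and the CArG box bound by serum response factor. Matches were found in *Dusp1* and *Dusp5*, which are printed because they were the only windows of the 9 with a match, and the capitals mark it. The *Dusp1* window lies at chr17:26508473-26508722 (minus strand) and holds a cAMP response element that begins 143 bases before the start. The *Dusp5* window lies at chr19:53528895-53529144 (plus strand) and holds 2 CArG boxes side by side, which begin 82 and 72 bases before the start. All these distances are counted from the RefSeq start. The GENCODE gene positions given below begin elsewhere, upstream of the window in *Dusp1* and inside it in *Dusp5*.
Dusp1: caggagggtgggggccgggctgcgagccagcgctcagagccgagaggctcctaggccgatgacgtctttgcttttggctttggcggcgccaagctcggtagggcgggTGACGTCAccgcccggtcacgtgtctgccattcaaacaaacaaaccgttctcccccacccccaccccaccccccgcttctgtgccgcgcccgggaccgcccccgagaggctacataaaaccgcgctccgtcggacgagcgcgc
Dusp5: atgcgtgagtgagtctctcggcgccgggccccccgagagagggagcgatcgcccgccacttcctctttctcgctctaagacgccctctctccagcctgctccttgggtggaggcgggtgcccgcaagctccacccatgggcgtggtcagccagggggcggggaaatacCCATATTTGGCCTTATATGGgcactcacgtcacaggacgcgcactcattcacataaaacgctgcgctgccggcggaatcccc
Of 32851 such windows over all genes, 1.55% held the cAMP response element and 1.47% a CArG box. The AP-1, ETS and EGR letters occurred in 6.75%, 6.91% and 0.536% of all windows and in 0 of the 9 windows. GC content was 56.0% to 70.8% in the 9 windows, beside a median of 52.4% over all windows.

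Sequencing depth, as total expected counts, was 46989997 and 74548723 for EV RV and 61442264 and 49012254 for Tox RV, replicate 1 first here and throughout. *Tox* itself was at 11.7 and 5.73 CPM (counts scaled to a fixed library size with edgeR's TMM factors) in EV RV and at 121 and 99.9 CPM in Tox RV, higher in both libraries labelled Tox RV. All 12 T cell markers were tested. Of these *Cd4* was at 174 to 250 TPM (transcripts scaled to a fixed total in each library) and *Cd3d* at 341 to 397 TPM. *Cd3e* was at 285 TPM in EV RV replicate 1 and at 85.7 to 109 TPM in the others. *Thy1*, *Cd5* and *Cd28* were also highest in EV RV replicate 1. By CPM, 5 of the 12 (*Cd3d*, *Cd3g*, *Cd247*, *Cd4*, *Lat*) were higher in each Tox RV library than in each EV RV library, and 1 (*Cd2*) was lower. The sum of the 12 was largest for EV RV replicate 1 (4240 TPM) and smallest for EV RV replicate 2 (3200 TPM). Between these lay Tox RV replicate 1 (4020 TPM) and replicate 2 (3530 TPM). The markers of B cells summed to 2.21 to 2.63 TPM, with *Ms4a1* and *Pax5* at 0 in every library. Those of myeloid cells summed to 89.1 to 94.7 TPM, of which *Cst3* alone had 80.96 to 87.15 TPM, with *S100a8* and *S100a9* at 0. Erythroid and stromal markers summed to 38.3 and 40.3 TPM in EV RV and to 28.4 and 30.6 TPM in Tox RV. *Pecam1* was the largest of them in each library, at 24.29 and 17.03 TPM in EV RV and 17.77 and 19.21 TPM in Tox RV. The part of such cells in the results was not tested. EV RV replicate 1 stood apart from the other 3 libraries. It was above all of them in 37.0% of the 14143 genes tested and below all of them in 37.0%. These shares were not computed for the other libraries, each of which is also the highest or lowest in some genes. The 45S pre-ribosomal RNA took 24.75% of the counts of EV RV replicate 1 against 7.14% to 11.97% elsewhere. Of the 10 feedback genes, 3 were higher (*Dusp1*, *Spry1*, *Spred2*) and 2 lower (*Dusp10*, *Spred1*) in EV RV replicate 1 than in each of the other libraries. Because the samples are bulk RNA, a lower level can come from fewer expressing cells or from less RNA per cell, which cannot be told apart.

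In Tox RV cells *Dusp6*, *Dusp10* and *Spred1* were estimated at 1.27, 1.26 and 1.25 times their EV RV level, *Dusp4* and *Dusp5* at 0.85 and 0.84 times, and *Spred2* at 0.64 times, but none of the 10 feedback genes passed the test. The other 4 genes were estimated at 0.88 to 1.16 times. Adjusted p-values are from the quasi-likelihood test of edgeR, corrected by Benjamini-Hochberg over the whole table. At a threshold of 0.05, 0 of 10 were called, and the background was 0 of 14143 genes (0%). The smallest adjusted p-value of all genes tested in edgeR was 0.49. The transduced gene *Tox*, with a log2 fold change of 3.675, was thus not called either, so the lack of a call says little about the 10 genes. Without correction, 0 of 10 had a p-value under 0.05 in edgeR, beside 512 genes in all (3.62%) and 619 in DESeq2. DESeq2 called 0 of 10, and 22 of the 18183 genes to which it gave an adjusted p-value (0.121%), although *Spred2* had an unadjusted p-value of 0.0481 in DESeq2 and 0.0779 in edgeR. The estimates ran from a log2 fold change of -0.65 for *Spred2* to 0.35 for *Dusp6*, with 5 genes above 0 and 5 below. Their median was 0.02, beside 0.004 over all genes tested. With 2 libraries against 2, an exact two-sided permutation test cannot go below 0.333 for any single gene. The genes had between 171 and 14400 counts in a library, for which counting error alone was 0.833% to 7.65% of a value. Without EV RV replicate 1 the test again called 0 of 10, and the remaining EV RV library lay outside the Tox RV libraries in 10 of 10 genes, beside 70.4% of all genes.

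**Figure D1:**
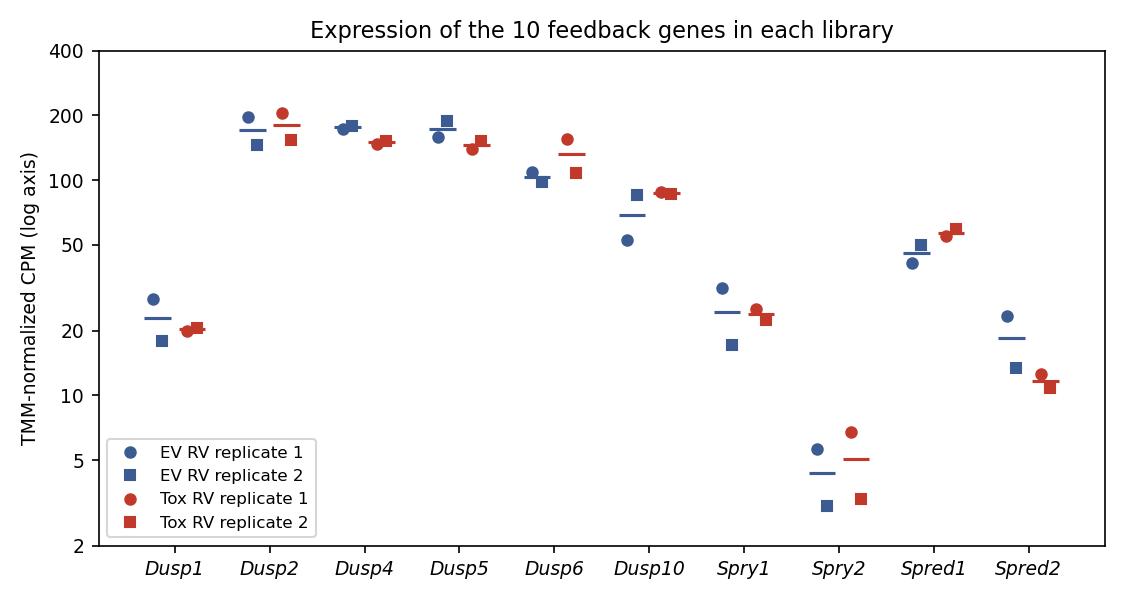
TMM-normalized CPM (log axis) of the 10 feedback genes, with EV RV libraries in blue and Tox RV libraries in red, circles for replicate 1, squares for replicate 2 and a short line at each group mean. The groups do not overlap in *Dusp4*, *Dusp5*, *Dusp10*, *Spred1* and *Spred2*, and the widest gaps between EV RV replicates are in *Spry1*, *Spry2* and *Spred2*.

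Of the inducible nuclear phosphatases, *Dusp5*, *Dusp2* and *Dusp4* had the highest TPM of the 10 genes and *Dusp1* a lower one. *Dusp5* (chromosome 19, 53529109 to 53542431, plus strand), whose product is a nuclear phosphatase selective for ERK, reached 158.5 and 189 CPM with EV RV against 139.9 and 153 CPM with Tox RV. Each Tox RV value lay below each EV RV value, while the estimated difference on the log2 scale was smaller than that between the EV RV replicates. This gave a log2 fold change of -0.25 (standard error 0.18, 95% interval -0.69 to 0.19, adjusted p = 0.897). *Dusp4* (chromosome 8, 34807297 to 34819894, plus strand), which encodes the related phosphatase MKP-2, had the smallest EV RV replicate difference of the 10 genes. It was at 173.5 and 179.5 CPM in EV RV and at 147 and 153 CPM in Tox RV. The group means were 176.5 ± 4.24 and 149.8 ± 4.07 CPM (SD, n = 2 each), and an SD from 2 values is itself poorly known. For the log2 fold change of -0.24 (standard error 0.16) the adjusted p-value was 0.897, in a test that moderates the spread of each gene toward that of other genes. The 95% interval of *Dusp4* ran from a fold of 0.65 to 1.11.

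In *Dusp4* and *Dusp5* the groups stayed apart, with Tox RV lower, under median-of-ratios scaling, without *Rn45s* and in TPM, with log2 fold changes of -0.24 and -0.26 in the first of these. When libraries were scaled by their totals alone, the median log2 fold change of all genes moved to 0.124, the values became -0.12 for *Dusp4* and -0.13 for *Dusp5*, and the groups overlapped in both genes. Under this scaling, which moves all genes upward alike, the groups did not overlap in 4 of the 10 genes (*Dusp6*, *Dusp10* and *Spred1* higher, *Spred2* lower), beside 39.0% of all genes. *Dusp5* overlaps an antisense transcript over 547 exonic bases on the other strand in the GENCODE annotation, and whether counting used strand is not given in the sources used here. The antisense transcript was not among the genes tested, and without strand its reads could not be told apart from those of *Dusp5*.

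*Dusp2* (chromosome 2, 127336159 to 127338376, plus strand) encodes PAC-1, a phosphatase of activated lymphocytes, and *Dusp1* (chromosome 17, 26505590 to 26562128, minus strand) encodes MKP-1, which acts on ERK, p38 and JNK. *Dusp2* was at 196 and 146 CPM in EV RV and at 206 and 154 CPM in Tox RV. The groups overlapped almost fully, and in each group replicate 1 was 1.34 times replicate 2. Its log2 fold change was 0.07 (with a standard error of 0.24 and an adjusted p-value of 0.960, 95% interval of the fold 0.70 to 1.57). *Dusp1* was at 27.9 and 17.96 CPM in EV RV and at 20.01 and 20.5 CPM in Tox RV. The Tox RV libraries (SD 0.338 CPM, n = 2) sat between the EV RV libraries, of which replicate 1 was 1.56 times replicate 2. The log2 fold change of -0.18 (adjusted p = 0.910) became 0.17 without EV RV replicate 1.

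*Dusp6* and *Dusp10* had estimates above 0. *Dusp6* (chromosome 10, 99263231 to 99267489, plus strand), the cytoplasmic phosphatase selective for ERK, was at 109 and 98.6 CPM in EV RV and at 156 and 108 CPM in Tox RV. Tox RV replicate 1 was the highest library, and Tox RV replicate 2 was just below EV RV replicate 1. The estimate for *Dusp6* was a log2 fold change of 0.35 (adjusted p = 0.897, standard error 0.23) and 0.05 without Tox RV replicate 1. *Dusp10* (chromosome 1, 184013302 to 184075636, plus strand), which prefers p38 and JNK over ERK, was at 52.6 and 85.5 CPM in EV RV and at 88.3 and 86.1 CPM in Tox RV. EV RV replicate 1 was the low library, and the other 3 lay close together. For *Dusp10* the estimate was 0.34 on the log2 scale (standard error 0.26, adjusted p = 0.897), which became 0.02 without EV RV replicate 1 and 0.74 without EV RV replicate 2.

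Of the Sprouty genes, *Spry1* (chromosome 3, 37639947 to 37644598, plus strand) was at 31.5 and 17.1 CPM in EV RV and at 25.1 and 22.5 CPM in Tox RV. Both Tox RV values were inside the EV RV range, with an estimate of -0.03 (log2 fold change, standard error 0.31, adjusted p = 0.991). This became 0.47 without EV RV replicate 1 and -0.40 without EV RV replicate 2. *Spry2* (chromosome 14, 105891947 to 105896819, minus strand) had the lowest TPM of the 10 genes and was at 5.64 and 3.06 CPM in EV RV and at 6.77 and 3.30 CPM in Tox RV. Replicate 1 was 1.84 times replicate 2 in EV RV and 2.05 times in Tox RV, so the replicates of a group differed by more than the groups. The log2 fold change of *Spry2* was 0.22 (adjusted p = 0.935, standard error 0.46), and its 95% interval, a fold of 0.53 to 2.55, was the widest of the 10.

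The Spred proteins recruit neurofibromin, a GTPase activating protein, to Ras, and their 2 genes had estimates of opposite sign. *Spred1* (chromosome 2, 117121374 to 117182279, plus strand) was at 41.2 and 50.3 CPM in EV RV and at 55.0 and 59.3 CPM in Tox RV. *Spred2* (chromosome 11, 19924375 to 20024026, plus strand) was at 23.5 and 13.3 CPM in EV RV and at 12.6 and 10.8 CPM in Tox RV. The groups did not overlap in either gene, with Tox RV on the higher side in *Spred1* and on the lower side in *Spred2*. On the log2 scale the fold change was 0.32 (standard error 0.18) for *Spred1* and -0.65 (standard error 0.30) for *Spred2*, and both adjusted p-values were 0.897. The 95% interval of the fold was 0.91 to 1.71 for *Spred1* and 0.38 to 1.07 for *Spred2*. The value for *Spred2* rested on EV RV replicate 1, which was 1.92 times the mean of the other 3 libraries. Without that library *Spred2* had a log2 fold change of -0.19, and without EV RV replicate 2 one of -1.0. *Spred2* shares 575 bases at 92.7% identity with the annotated gene *Gm14612*, which was not among the genes tested, so the level of *Spred2* may hold reads of this copy. *Spry1* overlaps 710 exonic bases of *Gm42922* on the other strand, and *Dusp1* 11 exonic bases of *Ergic1*.

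Leaving out EV RV replicate 2 was the only omission of a library that brought a call among the 10 genes. In that fit *Dusp10* (adjusted p = 0.0478) and *Spred2* (adjusted p = 0.0461) passed the edgeR test, against a background of 600 of 14408 genes (4.16%). EV RV was then represented by replicate 1 alone, whose spread is taken to equal that of the Tox RV libraries. Left out in turn, no library changed the sign of *Dusp4*, *Dusp5*, *Dusp6*, *Dusp10*, *Spred1* or *Spred2*. By contrast, *Dusp1*, *Dusp2*, *Spry1* and *Spry2* took both signs. In *Dusp4*, *Dusp5*, *Dusp10*, *Spred1* and *Spred2* the groups did not overlap, so with unchanged scaling no omission could reverse the sign. Only for *Dusp6* was the kept sign not fixed in this way, and its estimate fell to 0.05 without Tox RV replicate 1.

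**Figure D2:**
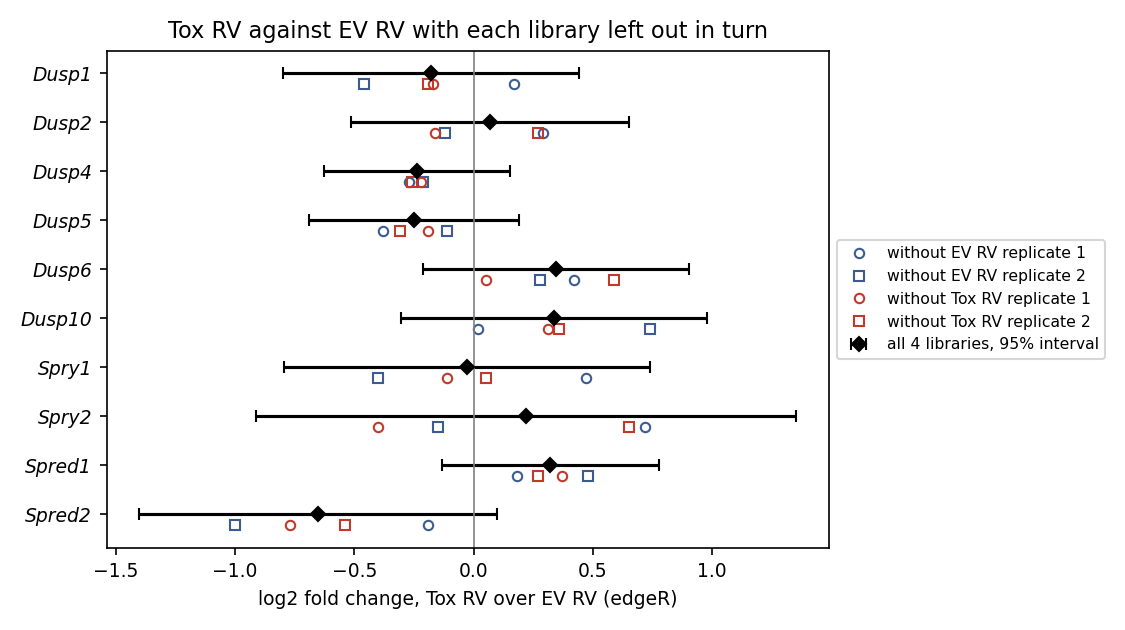
Log2 fold change of each feedback gene, Tox RV over EV RV, from edgeR. Black diamonds with bars are the fit of all 4 libraries with its 95% interval, and open symbols are fits without 1 library. All 10 intervals contain 0, and the open symbols lie on both sides of 0 for *Dusp1*, *Dusp2*, *Spry1* and *Spry2*.

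In 5 of the 10 genes the groups did not overlap. Tox RV exceeded EV RV in all 4 pairings of libraries in 2 (*Dusp10*, *Spred1*), beside 18.6% of all genes tested, and was below it in all 4 in 3 (*Dusp4*, *Dusp5*, *Spred2*), beside 17.4%. The separation of *Dusp10* was narrow, and was lost with median-of-ratios scaling, without *Rn45s* and in the TPM values, where EV RV replicate 2 (52.95) exceeded Tox RV replicate 2 (51.67). The EV RV replicates differed by more than the Tox RV replicates in 7 of the 10 genes, with a median absolute log2 difference of 0.53 in EV RV and 0.14 in Tox RV. Over all genes tested these medians were 0.38 and 0.17. In 7 of the 10 genes the distance between the EV RV replicates was also larger than the estimated difference between the groups. The shares of all genes tested with either order were not computed. The median absolute log2 fold change was 0.24 in the 10 genes and 0.21 over all genes tested, each below the EV RV median given above. A distance between 2 single libraries is also not the same measure as a difference between groups of 2.

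In 5 genes (*Dusp2*, *Dusp6*, *Spry1*, *Spry2* and *Spred2*) replicate 1 was above replicate 2 in each group. In 3 genes (*Dusp4*, *Dusp5* and *Spred1*) it was below in each group. The share of all genes tested with such agreement was not computed, and their replicate differences in EV RV and Tox RV had a correlation of 0.30. *Egr1*, an ERK-induced transcription factor picked out here after its values were seen, was arranged like *Spry2*, at 39.1 and 15.6 CPM in EV RV and at 35.5 and 15.0 CPM in Tox RV. The 9 markers of CD8 T cells and NK cells summed to 96.2 and 61.6 TPM in EV RV and to 66.7 and 41.6 TPM in Tox RV. The higher sums of replicate 1 came from *Klrd1* and *Klrk1*, which together had 53.0 and 9.67 TPM in EV RV and 30.5 and 6.70 TPM in Tox RV. The other 7 markers summed to 43.1 and 51.9 TPM in EV RV and to 36.2 and 34.9 TPM in Tox RV, and *Eomes*, the most abundant of them, was at 37.3 and 48.3 TPM in EV RV and at 31.0 and 30.7 TPM in Tox RV. Of the 9 markers 6 had enough counts to be tested, *Ncr1* and *Klra1* were at 0 in every library, and *Cd8a* stayed between 0.82 and 1.15 TPM. The part of such cells in the levels of the feedback genes was not tested.

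**Figure D3:**
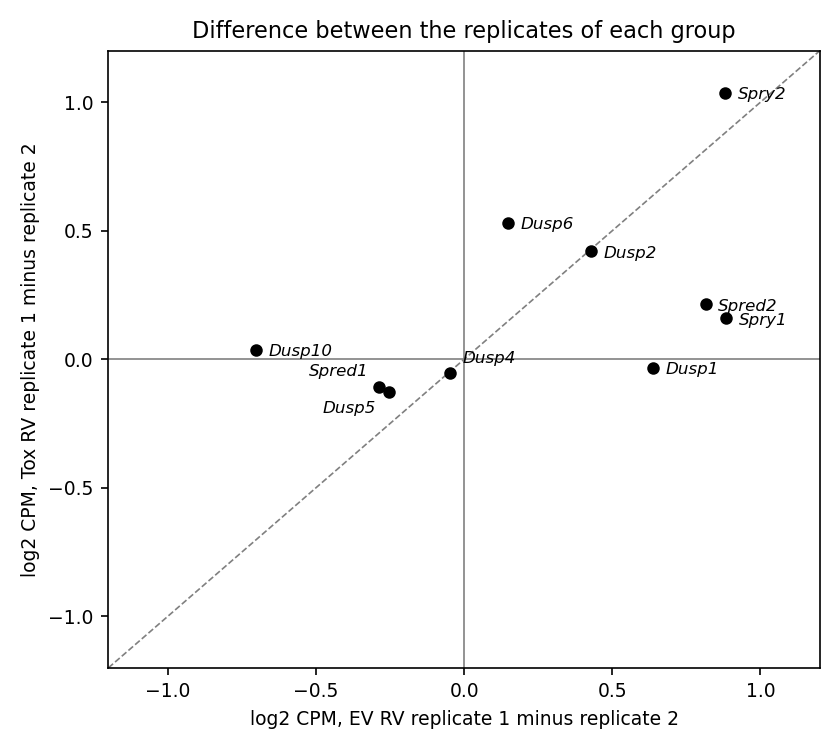
Log2 CPM of replicate 1 minus replicate 2 within EV RV (x axis) and within Tox RV (y axis) for each feedback gene, with the line of equal differences dashed. *Dusp2* and *Spry2* lie close to the line (0.43 and 0.88 on the x axis, 0.42 and 1.04 on the y axis), while *Dusp1*, *Dusp10* and *Spry1* differ widely between EV RV replicates only.

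Levels between genes were compared in TPM, which accounts for transcript length. *Dusp5* was the highest with a mean of 252 TPM over the 4 libraries, followed by *Dusp2* (188 TPM), *Dusp4* (114 TPM), *Dusp6* (69.9 TPM) and *Dusp10* (48.0 TPM). *Dusp1* (19.1 TPM), *Spry1* (17.4 TPM), *Spred1* (14.7 TPM) and *Spred2* (8.85 TPM) formed a lower tier, and *Spry2* (3.81 TPM) was last. *Dusp5* was above *Dusp2* in 4 of 4 libraries although their ranges overlapped. The ranges did not overlap between *Dusp2* and *Dusp4*, *Dusp4* and *Dusp6*, *Dusp6* and *Dusp10*, *Dusp10* and *Dusp1*, or *Spred2* and *Spry2*. Within the lower tier the ranges overlapped between *Dusp1* and *Spry1*, *Spry1* and *Spred1*, and *Spred1* and *Spred2*.

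*Dusp2*, *Dusp4* and *Dusp5* together made up 76.8% and 77.9% of the summed TPM of the 10 genes in EV RV, compared with 71.9% and 74.2% in Tox RV. The 4 Sprouty and Spred genes made up 7.03% and 4.95% in EV RV against 6.22% and 6.11% in Tox RV. The summed TPM was 796.9 and 744.7 in EV RV against 732.2 and 668.9 in Tox RV. The Tox RV libraries were the lower ones in this sum and in the share of *Dusp2*, *Dusp4* and *Dusp5*, but not in the share of the Sprouty and Spred genes. The sum was read in TPM only and depends on that scaling. The median log2 fold change of all genes was -0.049 in the limma fit of log2(TPM + 1), beside 0.004 in edgeR. The share of *Dusp6* was 8.60% and 7.89% in EV RV against 12.3% and 9.33% in Tox RV, and that of *Dusp10* was 4.30% and 7.11% in EV RV against 7.23% and 7.73% in Tox RV.

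**Figure D4:**
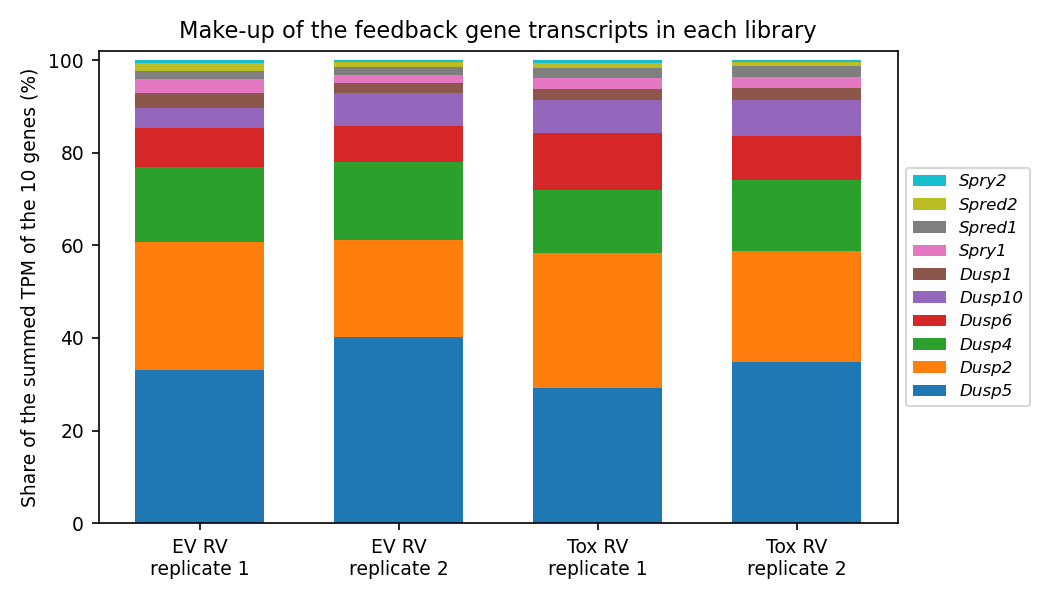
Share (%) of each feedback gene in the summed TPM of the 10 genes, as 1 stacked bar for each library. *Dusp5*, *Dusp2* and *Dusp4* at the bottom make up 71.9% to 77.9% of every bar, and *Dusp6* takes 12.3% in Tox RV replicate 1 against 7.89% to 9.33% in the other libraries.

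Ratios within a library do not depend on its scaling. The pairs given here were chosen after their values were seen, and no test was run on them. The ratio of *Dusp6* to *Dusp5* TPM was 0.260 and 0.197 in EV RV against 0.421 and 0.267 in Tox RV. The ratio of *Spred1* to *Spred2* TPM was 0.901 and 1.85 in EV RV against 2.16 and 2.67 in Tox RV. In both ratios the Tox RV libraries were the higher, and in the second EV RV replicate 1 was far below the other 3 libraries. The ratio of *Dusp5* to *Dusp4* TPM stayed between 2.07 and 2.39 in all libraries, with the groups overlapping.

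*Spry1* and *Spred1* were quantified from 4 and 2 transcripts, and the other 8 genes from 1. RSEM's transcript length, weighted by the abundance of each transcript, was 5459 bases for *Spred1* in EV RV replicate 1 and 5682 to 5740 bases in the other 3 libraries. For *Spry1* it was 2356 and 2363 bases in EV RV against 2309 and 2334 bases in Tox RV. The length of *Spred1* thus set apart a single EV RV library. In *Spry1* both lengths were shorter in Tox RV, but the nearest EV RV and Tox RV lengths were closer than the 2 Tox RV lengths. How many of all genes had such a separation in length was not computed.

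The genes with the most similar pattern were sought for *Dusp5*, the most abundant gene, and for *Spred2*, the gene with the largest estimate. Similarity was the root mean square difference of centred log2 CPM over the 4 libraries, among 8512 genes with a mean of at least 10 CPM. Nearest to *Dusp5* were *Slc48a1* (0.0141), *Igfbp4* (0.0179) and *Serpine2* (0.0197). Nearest to *Spred2* were *Zdhhc9* (0.0173), *6530403H02Rik* (0.0298) and *Gm17644* (0.0324). *Igfbp4* was at 94.4 and 109 CPM in EV RV and at 81.6 and 88.8 CPM in Tox RV. *Zdhhc9* was at 16.0 and 9.41 CPM in EV RV and at 8.82 and 7.56 CPM in Tox RV. With 4 libraries such matches are a description and carry no test.

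The remaining genes of the pathway were read from lists of related phosphatases, cascade components, Ras inhibitors, p38 and JNK kinases and ERK-responsive genes. In these lists 0 genes were called by edgeR in either direction, the smallest adjusted p-value in each was 0.897, and the genes with an unadjusted p-value below 0.05 in edgeR (0 in the cascade and in the p38 and JNK list) are named with their lists. Of 22 other DUSP, Sprouty and Spred genes, 16 were tested, 6 with an estimate above 0 and 10 below, and the median log2 fold change was -0.05. *Dusp22*, an atypical phosphatase known to act on Lck, was at 23.3 and 18.6 CPM in EV RV and at 15.2 CPM in each Tox RV library (log2 fold change -0.46, adjusted p = 0.897). *Dusp16*, a phosphatase of JNK, had a log2 fold change of -0.36 with overlapping groups, and the largest estimates above 0 among genes of at least 5 TPM were 0.03 for *Dusp12* and 0.001 for *Dusp11*. *Dusp9*, singled out after its values were seen, was the gene of this list with an unadjusted p-value below 0.05 (0.033), but it was expressed at under 1 TPM.

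Of the 28 genes of the Ras, Raf, MEK and ERK cascade, 27 were tested, and 11 were above 0 and 16 below (median -0.06). *Braf*, a kinase that activates MEK, was at 54.7 and 62.9 CPM in EV RV and at 42.9 and 47.6 CPM in Tox RV, with a log2 fold change of -0.38. *Rps6ka3*, which encodes the ERK-activated kinase RSK2, was at -0.34 with overlapping groups. *Rasgrp2*, an exchange factor of small GTPases, was at 0.65 and *Rps6ka1*, which encodes RSK1, at 0.41, each without overlap of the groups. The adjusted p-value was 0.897 for all 4.

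All 18 Ras GTPase activating and adaptor inhibitors were tested, and 11 were above 0 and 7 below (median 0.04). *Errfi1*, a feedback inhibitor of the EGF receptor family, was at 9.46 and 14.6 CPM in EV RV and at 24.6 and 19.3 CPM in Tox RV (log2 fold change 0.87, standard error 0.27). *Cbl*, a ubiquitin ligase of receptor and antigen receptor signalling, was at 129 and 88.9 CPM in EV RV and at 70.9 and 74.6 CPM in Tox RV (log2 fold change -0.58, standard error 0.22). In both genes the groups did not overlap, and the adjusted p-value was 0.897. *Dok2*, an adaptor that binds Ras GTPase activating proteins, had a log2 fold change of 0.51, and *Cblb*, the related ligase that restrains T cell activation, -0.43. Of the 17 p38 and JNK kinases 16 were tested, 8 above 0 and 8 below, with a median of 0.003. *Mapkapk2*, a substrate kinase of p38, was at -0.38 and *Map2k4*, which activates JNK, at -0.31, while *Mapkapk3* was at 0.22 and *Mapk11*, a p38 kinase, at 0.12.

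All 35 ERK-responsive genes were tested, and 15 were above 0 and 20 below, with a median log2 fold change of -0.11. An unadjusted p-value below 0.05 was reached by 5 of them, and all 5 estimates were below 0. Over all genes tested, 512 of 14143 (3.62%) were under this limit, of which 360 were lower in Tox RV and 152 were higher. *Phlda1* was at 46.3 and 15.1 CPM in EV RV and at 8.93 and 7.56 CPM in Tox RV (log2 fold change -1.89, standard error 0.52). *Jun*, a subunit of AP-1, was at 155 and 101.4 CPM in EV RV and at 68.1 and 66.9 CPM in Tox RV (log2 fold change -0.93, standard error 0.24). In both, the 2 Tox RV libraries were close together and below the EV RV libraries. The other 3 were *Bcl2l11* (-0.76), *Fosl2* (-0.72) and *Myc* (-0.57), which were named after their values were seen. In all 5, EV RV replicate 1 was the highest library, and the part of that library in these estimates was not tested. Among genes of at least 5 TPM the largest estimates above 0 were those of the nuclear receptor *Nr4a1* (0.79, groups overlapping) and of *Egr2* (0.36, at 105 and 109.7 CPM in EV RV and 152 and 123 CPM in Tox RV). The adjusted p-value was 0.897 for each of these genes.

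**Figure D5:**
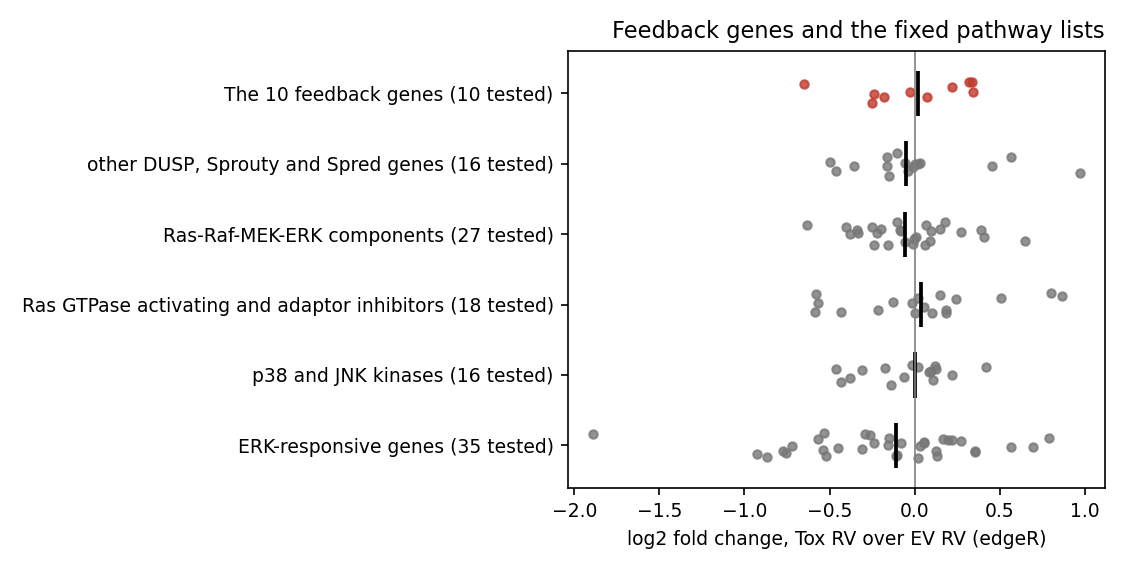
Log2 fold change, Tox RV over EV RV, of each tested gene of the 10 feedback genes (red) and of the 5 pathway lists (grey), with a black line at each median. The medians lie between -0.11 and 0.04, and the lowest point is *Phlda1* at -1.89 among the ERK-responsive genes.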

How the data were processed

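RNA-seq libraries of 4 samples, 2 EV RV and 2 Tox RV, were grouped by their sample titles. The authors checked reads with fastqc, aligned them with bowtie1 to mm10 transcripts and quantified genes with RSEM. Files deposited by the authors give, per gene, an expected count estimated by RSEM and not normalized, and a TPM value scaled by transcript length and library. The deposited transcript lengths are weighted by isoform abundance. Tool versions and the use of strand are not given in the sources used here. A deposited table of the whole series, a further scaling of the same libraries, was not used here.

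RSEM divides reads that match several transcripts by estimation, so genes with copies or overlaps are uncertain. After rounding to integers, the tests were run in edgeR 4.0.16 (R 4.3.3). The filterByExpr function (minimum count 10) selected genes, libraries were scaled by TMM, and groups were compared by glmQLFit and glmQLFTest without a block, with Benjamini-Hochberg adjustment over all genes tested. The common biological coefficient of variation was 0.232. Standard errors came from the log2 fold change and the F statistic, and 95% intervals from the t distribution. The procedure was run on simulated counts to check whether fitted fold changes followed the true ones. That simulation had no library set apart like EV RV replicate 1, so it says little about calls in these data. P-values measure the spread between 2 biological replicates per group.

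Alternatives were DESeq2 1.42.0, the tool of the study, and limma 3.58.1 on log2(TPM + 1) and log2(TPM + 0.1), median-of-ratios scaling, library totals, *Rn45s* left out, no low-count filter, the replicate number as a block and each library left out. Positions came from GENCODE M21, and copies of at least 90% identity over 200 bases were sought with blastn 2.17.0. The genes and lists were chosen with earlier results of these data known. All 10 genes were named, and from each pathway list the 2 highest and 2 lowest estimates among genes of at least 5 TPM. For *Dusp5* (highest TPM) and *Spred2* (largest estimate) the 3 genes of nearest pattern were named. For any other pathway gene the text says that its values had been seen.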

Additional observations from a re-analysis of the deposited data

How the results depend on the processing

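For the 10 feedback genes, 107 of 120 log2 fold changes under the alternatives kept their direction and their side of the threshold, 2 kept their direction and passed it, and 11 reversed. The call count of 0 of the 10 held under DESeq2, every scaling, no low-count filter, the replicate block and both limma fits, and ran from 0 to 2 with each library left out. The number of genes called in the whole table was 22 with DESeq2, 22 without the low-count filter, 16 with the replicate block and 1 to 600 with each library left out. It was 0 with median-of-ratios scaling, library totals, *Rn45s* left out and both limma fits, so 0 of the 10 was certain in those fits. The number of feedback genes whose groups did not overlap ran from 5 to 10 with each library left out. Fewer libraries then have to be apart, and the share over all genes was 56.0% to 84.3%.

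The reversals were in *Dusp1*, *Dusp2*, *Spry1* and *Spry2*, whose estimates with all libraries were -0.18, 0.07, -0.03 and 0.22. *Spry1* was at 0.12 with library totals and at 0.03 with the replicate block, and *Dusp2* at -0.01 in both limma fits. With each library left out the ranges were -0.46 to 0.17 for *Dusp1*, -0.16 to 0.29 for *Dusp2*, -0.40 to 0.47 for *Spry1* and -0.40 to 0.72 for *Spry2*. The cause was not tested. The replicate number is not known to mark a shared mouse or day. Over all genes tested, the replicate differences of EV RV and Tox RV had a correlation of 0.30, a hint from the data on 2 pairs, and the block brought no call among the 10 genes (*Spred2* adjusted p = 0.443). The gene with the lowest TPM, *Spry2*, had 171 to 428 counts in a library, and no test of depth was run.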
